A study of Mus musculus with 4 samples.

Results

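The interferon regulatory factors (IRFs) are a family of transcription factors, and 8 of their genes were followed here in mouse lung RNA-Seq: Irf1, Irf2, Irf3, Irf4, Irf5, Irf7, Irf8 and Irf9. They were taken by symbol from the 17780 genes of the deposited expression table, and all 8 had a row. Male C57BL/6J mice, 6 to 7 weeks old when purchased, had received 0.5% carboxymethylcellulose (vehicle), amiodarone at 300 mg per kg, dabigatran etexilate at 60 mg per kg, or both drugs, by mouth 5 times per week for 4 weeks. Amiodarone is an anti-arrhythmic agent with known lung toxicity, and dabigatran etexilate is the oral prodrug of a thrombin inhibitor. Each of the 4 groups has 1 library of poly(A)+ RNA from lung, dated to day 26 in the methods and to 28 days in the labels. Whether a library holds RNA of a single mouse is not given in the sources used here. No group has a replicate, which leaves no test between animals.

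IRFs bind DNA through a conserved amino-terminal domain that recognises GAAA repeats, found in the interferon-stimulated response element (ISRE). IRF3 and IRF7 are phosphorylated after sensors of viral nucleic acids are engaged and switch on the type I interferon genes, and IRF9 is the DNA-binding subunit of ISGF3, the complex that carries the type I interferon signal to the nucleus. IRF1 activates and IRF2 mostly represses genes of the interferon-γ response, IRF5 acts downstream of Toll-like receptors, and IRF4 and IRF8 direct the development of lymphocytes, dendritic cells and monocytes.

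The DNA upstream of 5 of these genes is shown because it is where the regulators of the interferon system could bind the genes themselves: Irf7 and Irf9, which differed most between amiodarone and vehicle, the antagonists Irf1 and Irf2, and Irf8. Each run is read 5′ to 3′ on the strand of the gene and ends just before the first RefSeq start site (build GRCm38.p6). The window of Irf7 in the RefSeq table precedes an inner start site, and its last 75 bases lie within the gene, so the 175 bases before the first start are shown and bases farther upstream were not searched. Capitals mark a match to 1 of 4 motifs searched on both strands: the ISRE core, which is GAAA repeated after a gap of 2 bases, the interferon-γ-activated site (GAS) TTCNNNGAA, an ETS-IRF composite, which is GGAA followed after 2 bases by GAAA, and the κB site seen in the last run of capitals of Irf1. In Irf2 the ISRE core and the composite overlap and form 1 run of capitals.
Irf7, chr7:141266500-141266674, minus strand: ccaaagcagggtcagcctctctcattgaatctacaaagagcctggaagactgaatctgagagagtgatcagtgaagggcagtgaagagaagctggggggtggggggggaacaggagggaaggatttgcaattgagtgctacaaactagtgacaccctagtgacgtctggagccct
Irf9, chr14:55603735-55603984, plus strand: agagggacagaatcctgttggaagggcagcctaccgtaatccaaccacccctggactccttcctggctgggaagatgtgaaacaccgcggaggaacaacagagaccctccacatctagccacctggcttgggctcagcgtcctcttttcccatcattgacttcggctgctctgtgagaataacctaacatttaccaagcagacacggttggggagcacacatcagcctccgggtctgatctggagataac
Irf1, chr11:53769764-53770013, plus strand: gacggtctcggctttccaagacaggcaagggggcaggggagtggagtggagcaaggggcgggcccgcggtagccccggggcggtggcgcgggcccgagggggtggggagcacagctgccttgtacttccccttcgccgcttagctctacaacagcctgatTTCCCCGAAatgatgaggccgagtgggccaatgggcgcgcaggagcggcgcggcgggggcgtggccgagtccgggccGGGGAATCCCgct
Irf2, chr8:46739495-46739744, plus strand: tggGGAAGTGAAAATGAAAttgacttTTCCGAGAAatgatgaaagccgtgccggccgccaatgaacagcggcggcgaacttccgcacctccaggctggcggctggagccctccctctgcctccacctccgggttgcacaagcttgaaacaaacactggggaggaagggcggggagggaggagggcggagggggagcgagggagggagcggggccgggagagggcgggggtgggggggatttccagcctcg
Irf8, chr8:120736108-120736357, plus strand: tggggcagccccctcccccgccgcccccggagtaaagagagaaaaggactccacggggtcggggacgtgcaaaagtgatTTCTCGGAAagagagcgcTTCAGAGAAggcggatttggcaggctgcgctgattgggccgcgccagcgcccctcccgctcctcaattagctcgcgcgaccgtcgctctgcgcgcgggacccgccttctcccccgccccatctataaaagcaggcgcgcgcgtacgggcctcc

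In its 250 bases, Irf1 holds a GAS motif from base 90 to base 82 before the start and the κB site from base 13 to base 4. Irf2 holds an ISRE core from base 241 to base 232 and a GAS motif from base 224 to base 216. Irf8 holds 2 GAS motifs, at bases 171 and 153. None of the 4 motifs was found for Irf7 or Irf9, which says only that these letters are not in these windows. The windows of Irf3, Irf4 and Irf5, which are not shown, had no match either, so the genes shown include every member with a match. Of the 11 windows of the 8 members, 3 hold a GAS motif, 1 the ISRE core, 1 the composite and 1 the κB site. Over all 32851 windows of this length in the RefSeq table, 2.98% hold the ISRE core, 7.02% a GAS motif, 2.30% the composite and 0.0852% the κB site. The motifs were chosen with these windows in view, so the matches are a description and not sites of binding.

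The libraries hold between 17498486 and 18903401 estimated reads on genes. Levels are given as FPKM, a count of fragments divided by transcript length and library depth, which allows levels of different genes to be set side by side. The interval beside a level (exact Poisson) or a ratio (exact Clopper-Pearson) is a 95% interval from the estimated reads. It covers counting error only, not the differences between mice, and sequenced fragments are not independent molecules. A difference whose interval for the ratio excludes 1 is called beyond counting error. All 10 markers of lung tissue were present, but not at one level. Their sum was 153000, 103000, 127000 and 128000 FPKM for vehicle, amiodarone, dabigatran and both drugs, and most of it was the club cell secretory gene Scgb1a1 at 124000, 74000, 99000 and 97800 FPKM, which was the 1 marker at least 1.5-fold lower with amiodarone than with vehicle. The surfactant gene Sftpc stayed between 19600 and 20400 FPKM, and the surfactant gene Sftpa1 was 1.36-fold higher with amiodarone than with vehicle (1.35 to 1.38). The part of these markers in the levels of the IRF genes was not tested.

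In the vehicle library, Irf3 was the most abundant member at 42.3 FPKM, followed by Irf1 at 40.6, Irf2 at 33.4, Irf9 at 22.8, Irf8 at 21.4, Irf5 at 16.0, Irf7 at 14.7 and Irf4 at 1.88 FPKM. The order was different with amiodarone, where Irf7 was first at 87.0 FPKM, and Irf1 at 53.1 and Irf9 at 51.1 FPKM came before Irf3 at 39.3 and Irf2 at 38.6 FPKM. Irf4 was last in every library. On the scale of log2(FPKM + 1), 2 of the 8 genes, Irf7 and Irf9, were at least 1.5-fold higher with amiodarone than with vehicle and none was at least 1.5-fold lower, against 4.34% and 3.93% of the 13402 genes that reached 1 FPKM in vehicle or amiodarone. The median difference over the 8 genes was 0.12, and over all of those genes it was -0.05. Irf1, Irf2, Irf7 and Irf9 were higher beyond counting error, as were 19.6% of all genes, and Irf4 and Irf8 were lower beyond it, as were 30.1%. Irf3 and Irf5 lay within counting error.

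**Figure D1:**
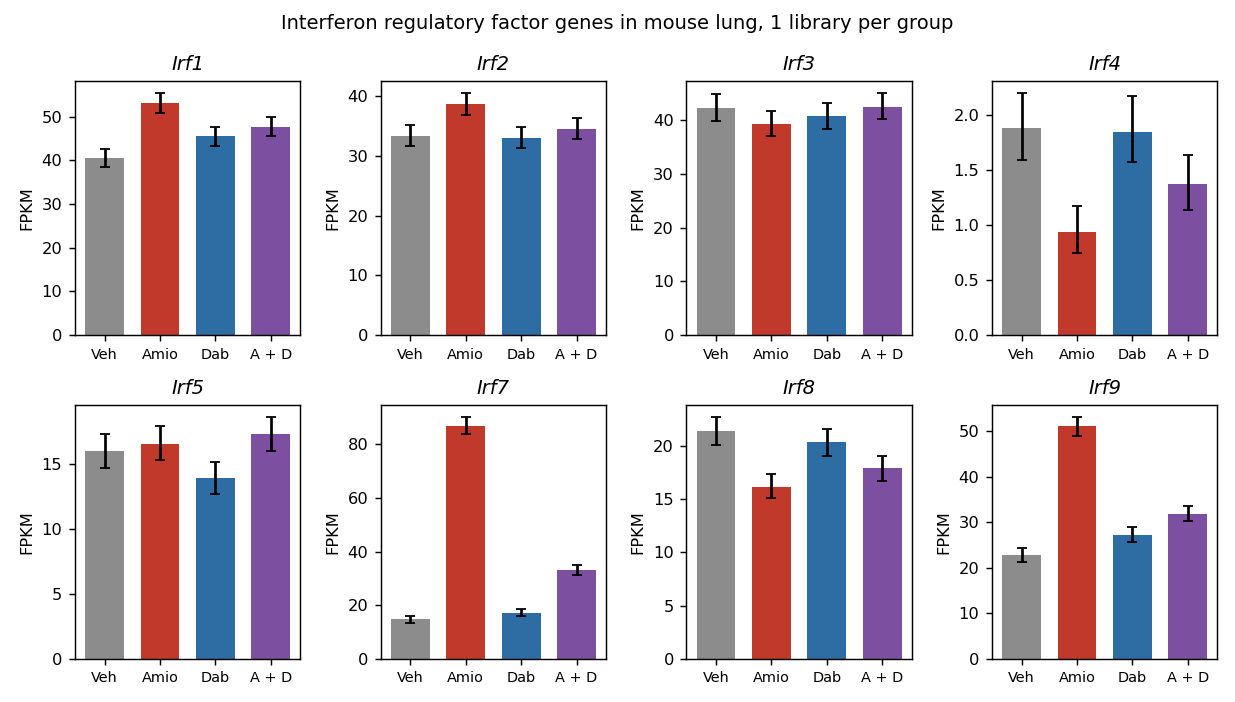
FPKM of the 8 interferon regulatory factor genes (y axis, linear, from 0, a scale for each gene) in the libraries from mice treated with vehicle (Veh), amiodarone (Amio), dabigatran (Dab) or both (A + D). Bars are the value of 1 library and error bars are 95% Poisson intervals from its reads. Irf7 reached 87.0 FPKM with amiodarone and 33.0 FPKM with both drugs, whereas Irf4 was lowest with amiodarone at 0.940 FPKM.

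Irf7 encodes the factor that amplifies the type I interferon response, and lies on chromosome 7 of GRCm38.p6 from 141263183 to 141266499, on the minus strand. Its level was 14.7 FPKM in the vehicle library, 87.0 after amiodarone, 17.2 after dabigatran and 33.0 after amiodarone + dabigatran, from 455, 2871, 540 and 1103 reads. The intervals of the 4 levels ran from 13.4 to 16.1, from 83.9 to 90.3, from 15.8 to 18.7 and from 31.1 to 35 FPKM. Only the vehicle and dabigatran intervals overlapped, although the ratio between these libraries, 1.17 (1.03 to 1.33), was beyond counting error. With amiodarone Irf7 was 5.92-fold higher than with vehicle (5.36 to 6.55), and 21 of the 13402 genes had a larger difference. With both drugs it was at 0.379 of the amiodarone level (0.353 to 0.406), and 13 of 13261 genes had a more negative difference. It was still 2.25-fold higher than with vehicle (2.01 to 2.51) and 1.92-fold higher than with dabigatran alone (1.73 to 2.13).

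The gene next to Irf7 at lower coordinates, Phrf1, ends 432 bases away on the opposite strand. It had 11.2, 12.8, 12.1 and 11.9 FPKM with vehicle, amiodarone, dabigatran and both drugs, so it ranged far less than Irf7. The neighbour on the other side, Cdhr5, was at or under 0.130 FPKM in every library. No other RefSeq gene overlaps Irf7. Plasmacytoid dendritic cells are known for a high constant level of Irf7, and Siglech, their defining surface marker, was at 1.19 FPKM in the vehicle library and at 0.430 FPKM after amiodarone. Of the 6 markers of this cell type that reached 1 FPKM in either of those, 5 were lower with amiodarone and 1 higher. On the log2(FPKM + 1) scale 3 were at least 1.5-fold lower, among them Spib, also a B cell factor, and none was higher by that much. The higher marker, Lair1, had 1.22 FPKM after vehicle and 2.18 after amiodarone, a difference of 0.52 on that scale. No marker was at 0, and the summed level was 187 FPKM after vehicle, 161 after amiodarone, 141 after dabigatran and 170 after both, most of it from Cox6a2, which muscle also expresses. The 8 neutrophil markers summed to 91.4, 596, 68.8 and 431 FPKM in that order of libraries and the 10 monocyte and macrophage markers to 3520, 5190, 3820 and 4890 FPKM. Most of the monocyte and macrophage sum was Lyz2, at 3400, 4910, 3690 and 4620 FPKM. With amiodarone, 7 of 7 tested neutrophil markers and 7 of 10 monocyte and macrophage markers were at least 1.5-fold higher than with vehicle. Of all genes, 4.34% were higher and 3.93% lower by that much with amiodarone than with vehicle. Between both drugs and amiodarone, 1 of 7 neutrophil markers was at least 1.5-fold lower, while 1 monocyte and macrophage marker was higher and 1 lower by that much. Of all genes, 1.06% were higher and 1.22% lower by that much in this comparison. By any amount, 6 of the 10 monocyte and macrophage markers were higher with both drugs and 4 lower. The part of these cells in the Irf7 level was not tested.

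Irf3, the partner of Irf7 that is present before any stimulus, lies on the same chromosome from 44997648 to 45002848. It had 42.3, 39.3, 40.8 and 42.5 FPKM with vehicle, amiodarone, dabigatran and both drugs. No neighbouring pair in the order of these levels differed beyond counting error, and the largest ratio, of both drugs to amiodarone, was 1.08 (0.998 to 1.17). Bcl2l12, which starts 10 bases from Irf3 on the opposite strand, was between 11.4 and 13.2 FPKM. The ratio of Irf7 to Irf3 per length was 0.347 (0.311 to 0.388) in the vehicle library and 2.21 (2.07 to 2.37) in the amiodarone library. It was 0.421 (0.379 to 0.467) with dabigatran and 0.775 (0.714 to 0.842) with both drugs. Irf7 RNA was therefore above Irf3 RNA in the amiodarone library and below it in the other 3.

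Irf9 lies on chromosome 14 from 55603985 to 55610030. It was at 22.8 FPKM after vehicle, 51.1 after amiodarone, 27.3 after dabigatran and 31.9 after both drugs. All 3 neighbouring pairs in this order differed beyond counting error, from vehicle through dabigatran and both drugs to amiodarone. The amiodarone level was 2.24-fold higher than vehicle (2.08 to 2.42), and the level with both drugs was 0.624 of the amiodarone level (0.584 to 0.668). Irf9 was also 1.2-fold higher with dabigatran than with vehicle (1.10 to 1.31). Stat2, which encodes a partner of IRF9 in ISGF3, had the same order of libraries, with 11.3, 30.3, 12.5 and 16.6 FPKM for vehicle, amiodarone, dabigatran and both drugs. Its amiodarone level was 2.68-fold that with vehicle (2.48 to 2.90), and its level with both drugs was 0.549 of that with amiodarone (0.513 to 0.587).
Rnf31, a subunit gene of the linear ubiquitin ligase, ends 311 bases before the start of Irf9 on the same strand and was looked at after its values were seen. It had 14.3, 22.1, 14.3 and 17.0 FPKM, and its ratio of amiodarone to vehicle was 1.55 (1.42 to 1.69).

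Irf1, whose product activates genes of antigen presentation and the interferon-γ response, lies on chromosome 11 from 53770014 to 53778374. It was at 40.6 FPKM after vehicle, 53.1 after amiodarone, 45.5 after dabigatran and 47.6 after both drugs. The amiodarone library was 1.31-fold above vehicle (1.22 to 1.40), and the library with both drugs was at 0.898 of amiodarone (0.843 to 0.956). Dabigatran and both drugs did not differ beyond counting error, at a ratio of 1.05 (0.980 to 1.12). Irf2, the antagonist of Irf1 at shared sites, lies on chromosome 8 from 46739745 to 46847458 and had 33.4, 38.6, 33.0 and 34.5 FPKM in the same order of libraries. The amiodarone library was 1.16-fold above vehicle (1.08 to 1.24), and the other 3 libraries did not differ from each other beyond counting error. The ratio of Irf1 to Irf2 per length was 1.21 (1.13 to 1.31) with vehicle and 1.38 in each of the other 3 libraries, with intervals that began at 1.28 or higher and overlapped that of vehicle. The higher levels of Irf1 and Irf2 with amiodarone stayed under 1.5-fold. Both genes carried the motifs named above in the windows shown, a GAS in each and an ISRE core in Irf2.

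Irf5, a mediator of inflammatory cytokine expression in macrophages, lies on chromosome 6 from 29526130 to 29541869. It was at 16.0 FPKM after vehicle, 16.5 after amiodarone, 13.9 after dabigatran and 17.3 after both drugs. Dabigatran was the low library, at 0.868 of vehicle (0.770 to 0.978), and the ratio of both drugs to dabigatran was 1.24 (1.11 to 1.40). Amiodarone and vehicle lay within counting error at a ratio of 1.03 (0.923 to 1.16). Of the members, Irf5 was the only gene whose estimated reads were not whole numbers (587.60 with vehicle), which means that reads matching more than 1 place were divided by estimation. Its last 1043 bases overlap Tnpo3 on the opposite strand, which was between 16.1 and 16.6 FPKM in all libraries.

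Irf8, which acts in monocytes, dendritic cells and B cells, lies on chromosome 8 from 120736358 to 120756694. It was at 21.4 FPKM after vehicle, 16.1 after amiodarone, 20.3 after dabigatran and 17.9 after both drugs. The amiodarone library was at 0.756 of vehicle (0.690 to 0.828), and the library with both drugs was 1.11-fold above amiodarone (1.01 to 1.22). Vehicle and dabigatran, the highest libraries, did not differ beyond counting error. Irf4, which acts in B cells, plasma cells and T cells and lies on chromosome 13 from 30749233 to 30766981, followed the same order at a much lower level. It had 1.88 FPKM after vehicle (153 reads), 0.940 after amiodarone (82 reads), 1.85 after dabigatran (153 reads) and 1.37 after both drugs (121 reads). The amiodarone level was 0.50 of vehicle (0.378 to 0.658), and the level with both drugs was 1.46-fold above amiodarone (1.09 to 1.95) and 0.729 of vehicle (0.569 to 0.931). At this low level the pseudocount of 1 FPKM shrinks the difference to -0.57 on the log2 scale, just short of 1.5-fold.

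The summed level of the B lymphocyte markers had the same order of libraries as Irf4 and Irf8. Each of the 8 markers was at least 1.5-fold lower with amiodarone than with vehicle, as were 3.93% of all genes. With both drugs, 6 of 8 were at least 1.5-fold higher than with amiodarone, as were 1.06% of all genes. The sum was 196 FPKM after vehicle, 68.8 after amiodarone, 166 after dabigatran and 123 after both drugs, and no marker was at 0. Conventional dendritic cell markers summed to 35.9, 32.8, 36.1 and 32.4 FPKM, and plasma cell markers to 197, 194, 192 and 207 FPKM. Most of the plasma cell sum was Sdc1 and Xbp1, at 90.0 and 90.5 FPKM after vehicle. The median level of the 6 plasma cell markers was 7.20, 4.67, 8.98 and 4.84 FPKM. With amiodarone, 4 of the 5 tested were lower than with vehicle and 1 was higher. The 7 T lymphocyte and natural killer cell markers in the table summed to 43.9, 53.2, 67.6 and 59.6 FPKM. Of these sums, Gzma held 24.6, 34.2, 44.8 and 39.9 FPKM. With amiodarone, 3 of the 7 were higher than with vehicle and 4 lower, at a median difference of -0.10 on the log2(FPKM + 1) scale. In bulk lung, fewer cells of a type and less RNA per cell cannot be told apart, and the part of B lymphocytes in the levels of Irf4 and Irf8 was not tested. Among known partners of Irf4 and Irf8, Spib, an ETS factor of B cells and plasmacytoid dendritic cells, had 9.95, 3.63, 8.84 and 6.85 FPKM, a ratio of amiodarone to vehicle of 0.365 (0.307 to 0.432). Its relative Spi1, which encodes PU.1 in myeloid and B cells, had 29.2, 39.4, 25.3 and 47.8 FPKM, an order of libraries unlike that of Spib.

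The summed level of the 8 genes was 193 FPKM after vehicle, 303 after amiodarone, 200 after dabigatran and 226 after both drugs. Without Irf7 and Irf9 it was 155, 165, 155 and 161 FPKM, so most of the difference in the sum lay in these genes. Irf7 made up 7.61% of the sum after vehicle, 28.8% after amiodarone, 8.60% after dabigatran and 14.6% after both drugs. The share of Irf3 was 21.9%, 13.0%, 20.4% and 18.8% in the same order, from nearly equal levels.

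**Figure D2:**
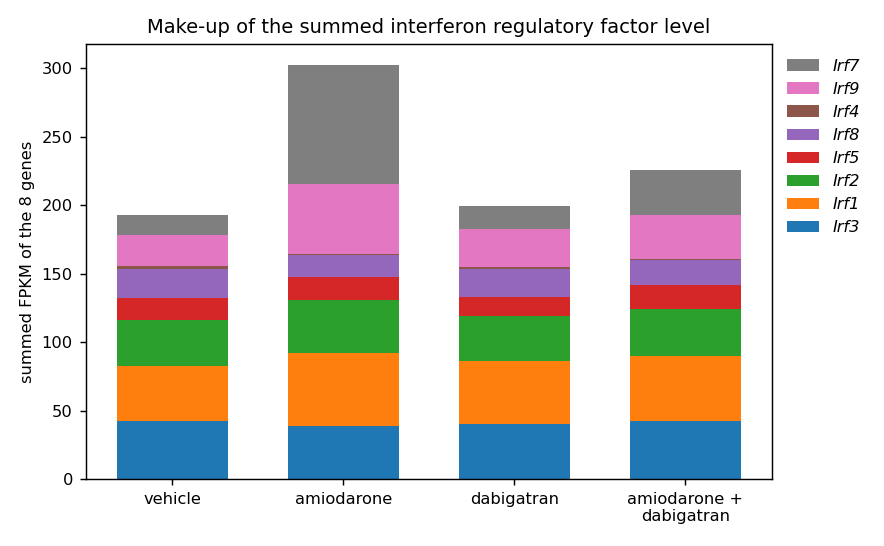
Summed FPKM of the 8 interferon regulatory factor genes (y axis, linear, from 0) in each of the 4 libraries, with the part of each gene as a coloured segment. The sum was 193 FPKM with vehicle and 303 FPKM with amiodarone, and the Irf7 segment took 7.61% and 28.8% of it.

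Dabigatran alone was compared with vehicle to see what the anticoagulant did without amiodarone. None of the 8 genes was at least 1.5-fold higher or lower, as against 0.449% and 0.508% of 13373 genes. Irf1, Irf7 and Irf9 were higher beyond counting error, at ratios of 1.12, 1.17 and 1.2, and Irf5 was lower. Of all genes, 15.2% were higher and 13.4% lower beyond counting error. With 1 library per group, a difference between treatments and a difference between mice cannot be told apart, here and in every comparison.

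The library with both drugs was compared with amiodarone alone to see which levels changed when dabigatran was added. Irf7 and Irf9 were at least 1.5-fold lower and no member was at least 1.5-fold higher, against 1.22% and 1.06% of 13261 genes. The median difference was -0.05 over the members and 0.03 over all genes. Beyond counting error, Irf1, Irf2, Irf7 and Irf9 were lower, as were 15.0% of all genes, and Irf4 and Irf8 were higher, as were 21.2%. These are the 6 genes that differed between amiodarone and vehicle, in the opposite direction, but both comparisons use the amiodarone library. On the log2 scale the level with both drugs had moved from amiodarone towards vehicle by 54.5% of the step for Irf7, 58.3% for Irf9, 40.2% for Irf1, 77.0% for Irf2, 54.3% for Irf4 and 36.4% for Irf8.

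**Figure D3:**
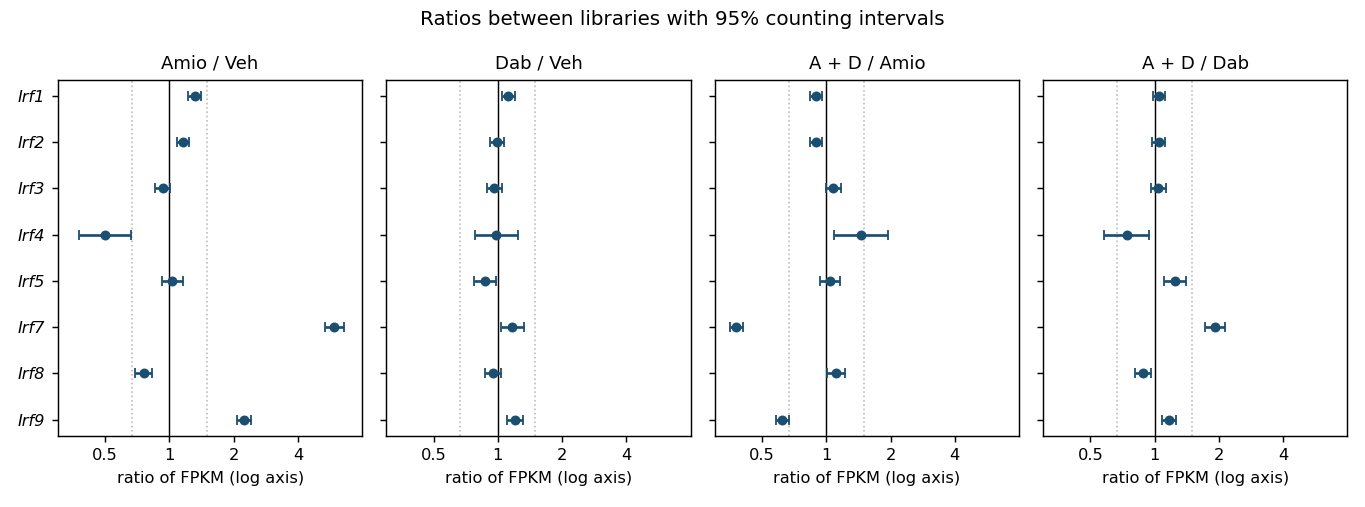
Ratio of FPKM between 2 libraries (x axis, log scale) for each interferon regulatory factor gene, in 4 comparisons. Points are ratios, bars are 95% counting intervals, and dotted lines mark 1.5-fold. Irf7 lies at 5.92 for amiodarone to vehicle and at 0.379 for both drugs to amiodarone.

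The change with amiodarone can also be read in the presence of dabigatran, from the library with both drugs set against dabigatran alone, a pair that has no library in common with amiodarone and vehicle. In that pair, Irf7 was the member at least 1.5-fold higher and none was at least 1.5-fold lower, against 3.25% and 2.04% of 13379 genes. Against vehicle, the library with both drugs likewise had Irf7 alone at least 1.5-fold higher and no member lower by that much, where 3.20% and 2.55% of 13390 genes were. Beyond counting error, Irf5, Irf7 and Irf9 were higher and Irf4 and Irf8 lower with both drugs than with dabigatran, as were 19.5% and 23.5% of all genes. Against vehicle, Irf1, Irf7 and Irf9 were higher beyond counting error with both drugs and Irf4 and Irf8 lower, as were 20.0% and 22.6%. The log2 ratio of Irf7 was 2.57 without dabigatran and 0.94 with it, a difference of -1.63 (95% interval from counting -1.83 to -1.42). For Irf9 the log2 ratios were 1.17 and 0.22, a difference of -0.94 (-1.10 to -0.78), and for Irf1 they were 0.39 and 0.07, a difference of -0.32 (-0.46 to -0.19). For Irf4 the negative ratio was smaller with dabigatran, at -0.43 against -1.0, a difference of 0.57 (0.05 to 1.08). The difference was 0.22 (0.04 to 0.40) for Irf8 and 0.27 (0.04 to 0.50) for Irf5. That of Irf2, -0.15, had an interval that only just excluded 0, and that of Irf3, 0.17, one that just included it. In all, 4 intervals lay below 0 and 3 above it, where 15.7% and 20.1% of 13514 genes did so, counting genes that reached 1 FPKM in any library and had reads in all 4.

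**Figure D4:**
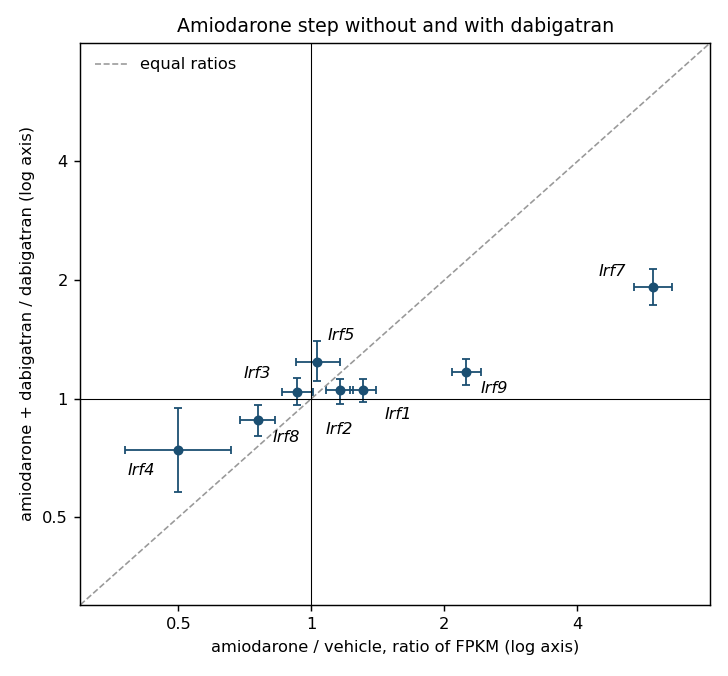
Ratio of FPKM between both drugs and dabigatran (y axis, log scale) against the ratio between amiodarone and vehicle (x axis, log scale) for the 8 genes, with 95% counting intervals. The dashed line marks equal ratios. Irf7 lies at 5.92 on the x axis and 1.92 on the y axis, and Irf9 at 2.24 and 1.17, both below the line.

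The other genes of the pathway are described by lists of genes with known roles. Counts of genes at 1.5-fold in these lists are on the log2(FPKM + 1) scale, which shrinks differences at low levels. By the same threshold, 4.34% of all genes were higher and 3.93% lower with amiodarone than with vehicle. Between both drugs and amiodarone the shares were 1.06% and 1.22%, and between dabigatran and vehicle 0.449% and 0.508%. The lists were written with earlier results of these data known, in which interferon response genes were already seen to be higher with amiodarone. The step before the IRFs is their activation. Of 13 sensors and adaptors, 5 exceeded vehicle by 1.5-fold or more after amiodarone and none was lower by that much. Mb21d1, at 0.620 FPKM after vehicle and 1.26 after amiodarone, was not among these 5 because its level was low. Zbp1, a sensor of Z-form nucleic acids, was at 7.84 FPKM after vehicle, 42.2 after amiodarone, 10.2 after dabigatran and 18.9 after both drugs, and Dhx58, which encodes the RIG-I-like protein LGP2, had 3.78, 11.6, 3.61 and 6.85 FPKM. None of the 10 kinases and ligases that act on IRFs differed by 1.5-fold, and the largest difference was that of the ubiquitin ligase gene Peli1, at a ratio of 1.28 (1.18 to 1.39). Tbk1, the kinase of IRF3, had 11.7, 14.6, 11.5 and 13.5 FPKM. The sensors thus held genes at higher levels, while the kinases did not by this threshold.

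Of the 11 interferon genes listed, Ifng was the only one with a row, and the others were not analysed here. It had 2, 5, 6 and 9 reads with vehicle, amiodarone, dabigatran and both drugs. The ratio of amiodarone to vehicle, 2.30, had an interval from 0.377 to 24.2, so a difference was not detectable at this depth. The 12 genes of interferon receptors and JAK-STAT signalling had a median difference of 0.02 between amiodarone and vehicle on the log2(FPKM + 1) scale. Of these, 2 were at least 1.5-fold higher, Stat2 among them, and none was at least 1.5-fold lower, against 4.34% and 3.93% of all genes. With both drugs, 1 was at least 1.5-fold lower than with amiodarone and 0 were higher by that much.

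Of the targets, all 14 genes of the ISGF3 and IRF7 list that have a row exceeded vehicle by 1.5-fold or more after amiodarone, and all 14 were lower after both drugs than after amiodarone by 1.5-fold or more. Their median difference was 2.06 and then -1.13 on the log2(FPKM + 1) scale, where all genes had -0.05 and 0.03. Ifit1, an inhibitor of viral RNA translation, had 7.86, 46.1, 10.2 and 14.1 FPKM, and Rsad2, which encodes the antiviral enzyme viperin, had 2.28, 16.1, 3.15 and 6.25 FPKM. Of 16 genes of the IRF1 and interferon-γ list, 11 exceeded vehicle by at least 1.5-fold after amiodarone, and 3 were lower by as much after both drugs than after amiodarone. Igtp, a GTPase of cell-autonomous immunity, had 18.1, 57.4, 21.6 and 43.7 FPKM, and the chemokine gene Cxcl10 had 1.15, 4.80, 1.94 and 1.92 FPKM. The median of this list was 0.91 and then -0.28. The ISGF3 and IRF7 list thus had larger median differences in both steps than the IRF1 list. With dabigatran alone, no tested gene of either list was 1.5-fold apart from vehicle on the log2(FPKM + 1) scale. In FPKM itself, Cxcl10 (1.15 with vehicle and 1.94 with dabigatran) and Oas2 (2.75 and 4.16) were more than 1.5-fold higher.

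Feedback inhibitors were in part higher, with 4 of 9 at least 1.5-fold above vehicle in the amiodarone library and none below. Usp18, which removes ISG15 and blocks the type I interferon receptor, had 11.7, 38.0, 12.6 and 16.3 FPKM, and Socs3, an inhibitor of STAT3 signalling, had 12.3, 38.7, 12.6 and 26.3 FPKM. Of the 10 partners and co-repressors, Spib was the gene at least 1.5-fold lower with amiodarone on the log2(FPKM + 1) scale. None was at least 1.5-fold higher on that scale. In FPKM itself, the ratio of amiodarone to vehicle was 0.627 (0.510 to 0.769) for Ikzf3 and 1.51 (1.13 to 2.02) for Batf. Batf, a partner of IRF4 and IRF8, had 5.39, 8.13, 4.19 and 6.92 FPKM. Of the 8 tested targets of IRF4 and IRF8, 3 exceeded vehicle by 1.5-fold or more after amiodarone and none fell short of it by as much. Ctss, a lysosomal protease of antigen-presenting cells and macrophages, had 77.1, 227, 80.3 and 206 FPKM, and the transcription factor gene Klf4 had 55.0, 103, 68.5 and 71.1 FPKM. Both Ctss and Klf4 thus rose from vehicle through dabigatran and both drugs to amiodarone, which is the reverse of the order of Irf4 and Irf8. Within that order, vehicle and dabigatran did not differ beyond counting error for Irf4 or Irf8. A link between these genes and Irf4 or Irf8 was not tested.

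**Figure D5:**
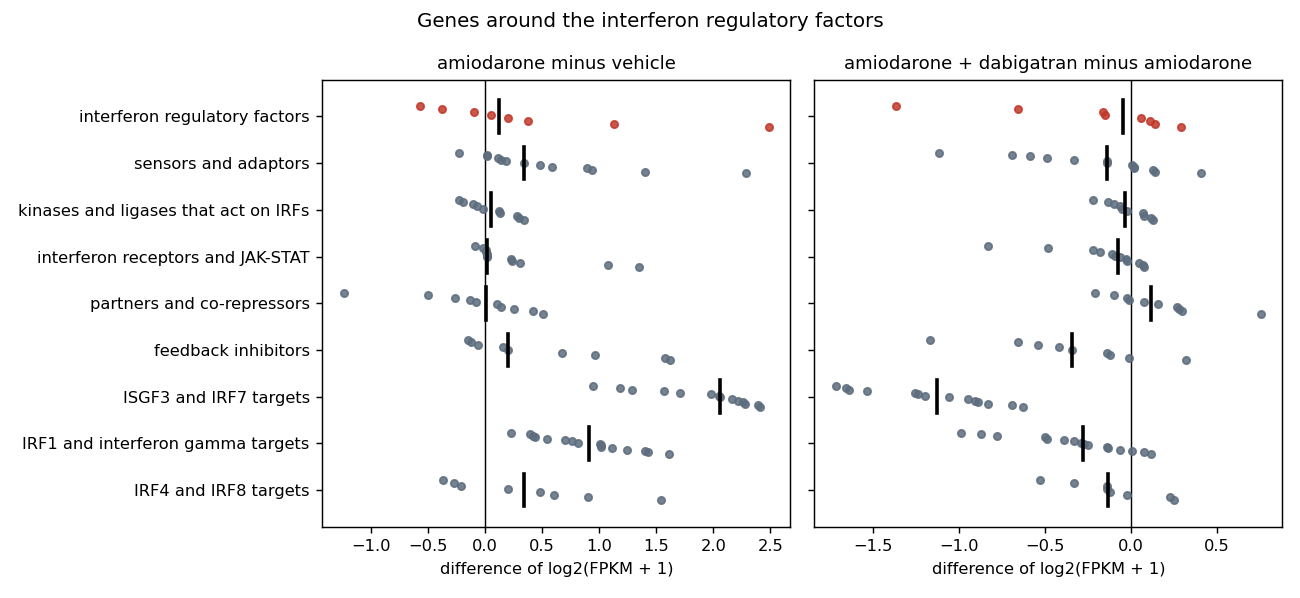
Difference of log2(FPKM + 1) (x axis, linear) for amiodarone minus vehicle and for both drugs minus amiodarone, with a point for each gene that reached 1 FPKM in 1 of the 2 libraries compared and a black line at the median of the list. The vertical spread within a list only separates points. The ISGF3 and IRF7 targets have medians of 2.06 and -1.13, and the interferon regulatory factors (red) of 0.12 and -0.05.

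Genes with a pattern like that of the members that differed most were found by the Euclidean distance between their 3 differences from vehicle on the log2(FPKM + 1) scale, among 10148 genes with at least 5 FPKM in any library. The nearest to Irf7 were Rsad2 at a distance of 0.17, Oasl2 at 0.24 and Zbp1 at 0.24. The nearest to Irf9 were Phf11b at 0.10, Ifi209 at 0.13 and Fkbp14 at 0.14. Each pattern rests on 4 libraries and all 3 differences share the vehicle library. Among the members themselves, Irf4 and Irf8 were the closest pair at 0.20, and the distance between Irf7 and Irf9 was 1.5. Of the 3 genes nearest to Irf7, Rsad2 has an ISRE core in the 250 bases before its start, on the strand opposite to the one read. It is shown with its 10 flanking bases on each side and the core in capitals, since elements of this kind are known to be bound by ISGF3 and IRFs. The match is a description and not a measured site.
Rsad2, chr12:26456553-26456582, minus strand: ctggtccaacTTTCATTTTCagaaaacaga
Of the 12 ISGF3 and IRF7 targets with a window in the table, 6 hold an ISRE core, as do 6 of 13 IRF1 and interferon-γ targets and 1 of the 8 members. Over all 27025 genes with a window the share is 3.46%. The target lists were written from genes known to respond to these factors, so their shares cannot count as a result of these data.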

How the data were processed

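Lung poly(A)+ RNA of 4 treatment groups, 1 library each, was analysed, with groups taken from the treatment label. Per the paper's methods, the authors mapped DNBseq reads to GRCm38.p6 with HISAT and to reference genes with Bowtie2, and estimated expression with RSEM. The deposited table gives for each library an expression value, read here as FPKM because reads per unit of value differ between libraries by the ratio of total reads (1.07 for amiodarone to vehicle), and an estimated count of reads, rounded here for intervals. Another 8 deposited columns are means over 2 libraries and were not used. The lengths behind FPKM are estimated per library, so intervals of read ratios were scaled to the ratio of FPKM. No test across genes was run, since no group has replicates.

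Comparisons used log2(FPKM + 1), a minimum of 1 FPKM in at least 1 of the libraries compared and a threshold of 1.5-fold. The difference between amiodarone steps has a Wald interval from the 4 counts. Members, lists and motifs were chosen with earlier results of these data known. Named genes are the 8 members and the 2 genes of each pathway list with the largest absolute difference between amiodarone and vehicle. Of the interferon receptor and JAK-STAT list only Stat2 is named, and of the interferons only Ifng. Also named are the 3 genes nearest in pattern to members 1.5-fold apart, overlapping genes that have a row and neighbours of Irf7. Bcl2l12, Rnf31, Spi1, Ikzf3, Mb21d1, Oas2 and the named markers were picked with their values in view. Some genes of the lists are not reported here. Coordinates, promoters and start sites are from RefSeq (GRCm38.p6), strands from GENCODE M21. Analyses used Python 3.11.15 and scipy 1.17.1.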

Additional observations from a re-analysis of the deposited data

How the results depend on the processing

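Alternatives were other pseudocounts (0.1 and 5), thresholds (2-fold and 1.2-fold), filters (none and 5 FPKM), FPKM rescaled by the median ratio over 12728 genes (factors from 0.976 to 1.01) and reads scaled to the library total. Of 81 recomputed counts of members, 71 stayed within 1.5 times the first value. None of 120 recomputed differences of single members changed sign where it was called or moved by more than the half-width of its counting interval. The other 10 counts are the following. For amiodarone against vehicle, the count of lower members went from 0 to 1 (Irf4) with a pseudocount of 0.1 and with scaled reads, and to 2 (Irf4 and Irf8) at 1.2-fold. For both drugs against amiodarone, 1 member (Irf4) was higher at 1.2-fold and 1 (Irf7) was lower at 2-fold. For both drugs against dabigatran, 0 members were higher at 2-fold, and 2 were higher (Irf5 and Irf7) and 1 lower (Irf4) at 1.2-fold. For both drugs against vehicle, 2 were higher (Irf7 and Irf9) and 1 lower (Irf4) at 1.2-fold. The background counts moved more. For amiodarone against vehicle, 582 genes were higher and 527 lower, against 719 and 910 with a pseudocount of 0.1, 330 and 155 with 5, 250 and 73 at 2-fold and 1573 and 2557 at 1.2-fold. For both drugs against amiodarone, 140 and 162 genes became 300 and 260, 30 and 65, 25 and 38, and 1245 and 786 under the same 4 settings. For dabigatran against vehicle, 60 and 68 became 172 and 184, 18 and 11, 12 and 9, and 674 and 738, and the 60 higher genes became 94 with scaled reads. For both drugs against dabigatran, 435 and 273 became 571 and 549, 214 and 104, 154 and 58, and 1432 and 1675. For both drugs against vehicle, 428 and 342 became 597 and 592, 216 and 115, 157 and 56, and 1472 and 1680. With the filter of 5 FPKM, which leaves fewer genes, the 527 became 336, the 140 became 73, the 60 and 68 became 27 and 24, and the 342 became 218. No paired analysis was possible because each group has 1 library. For the same reason no library could be left out, and depth limits mainly Irf4, with 82 to 153 reads per library, and Ifng.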

Other observations

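Tlr7, the endosomal sensor of single-stranded RNA upstream of Irf7 and Irf5, was named after its values were seen. It was at 1.5 FPKM after vehicle, 3.64 after amiodarone, 2.24 after dabigatran and 3.72 after both drugs. The libraries with amiodarone and with both drugs did not differ beyond counting error, at a ratio of 1.02 (0.858 to 1.22), where Irf7 was at 0.379. The sensor genes Zbp1 and Dhx58 were lower with both drugs than with amiodarone.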
